A study of Nicotiana tabacum with 9 samples.

Results

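Leaf RNA of tobacco (Nicotiana tabacum) from the material labelled Y was compared with leaf RNA of K326, a flue-cured cultivar, by RNA sequencing. Each material had 3 libraries, so that 6 of the 9 libraries of the series entered the comparison. The labels do not say what Y is, how it relates to K326, or at which age the leaves were taken, and they name no treatment. The series is titled after yellowing of the leaf and the folate-synthesis gene DHNA. Of the 69500 genes in the deposited table, the 16547 whose mean over these 6 libraries was at least 1 were compared, and they are described here by the families and pathways that their protein-domain descriptions name. The labels number the replicates without saying that they came from separate plants, so p-values measure library-to-library spread, some of which may be technical.

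A leaf blade is largely photosynthetic mesophyll, whose chloroplasts hold the antenna and photosystem proteins that capture light and the enzymes that fix carbon. Cells of a growing leaf still copy and package their chromatin and build cytoskeleton and wall, and those genes are less active in a mature leaf. Yellowing is the visible loss of chlorophyll, which plants make from a porphyrin into which magnesium chelatase inserts magnesium and break down through pheophorbide. Folates, the carriers of single-carbon units, are built from a pterin, p-aminobenzoate and glutamate, and dihydroneopterin aldolase makes an intermediate of the pterin. Because tobacco is an allotetraploid with near-identical copies of many genes, the value of a single copy depends on how reads were divided between copies and is uncertain.

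The libraries carried the transcripts of leaf. The 9 tested genes of the small subunit of Rubisco, the enzyme that fixes carbon dioxide, summed to 64634, 68702 and 78370.1 in the K326 libraries and to 65136, 53816 and 65961 in the Y libraries, out of a total signal of 551496 to 591786 per library. The read depth is unknown, and the deposited signal has no named unit. Across tested genes, Pearson's r of log2(value + 1) was 0.928 to 0.963 within a material and 0.903 to 0.935 between the materials, and genes are not independent replicates. Marker lists for other tissues were followed as well. The 8 tested terpene synthases, a family active in glandular hairs, summed to 65.7, 69.7 and 32.7 in K326 and 17.3, 16.3 and 51.4 in Y, which overlapped. Of the 8, 7 were below 0, 2 were called lower and none higher, and the median of -0.30 ranged from -0.95 to 0.00 without 1 library. The 10 tested genes of the root list, which are quinolinate phosphoribosyltransferases and berberine-bridge-type enzymes rather than root-specific genes, had a median log2 difference of -0.05 and no call. The 36 genes of the flower and pollen list, mostly extensin-domain proteins, had 1 member called higher, 3 called lower and a median of -0.43.

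In Y, 152 genes were higher and 250 were lower than in K326 (limma, Benjamini-Hochberg adjusted p below 0.05 over all 16547 genes), which is 2.43% of the genes tested, 0.919% higher and 1.51% lower. At least a 2-fold difference on the log2(value + 1) scale was reached by 137 of the higher and 211 of the lower genes. Without the adjustment, 885 genes (5.35%) were higher and 1828 (11%) lower at p below 0.05. The 3 libraries of Y lay wholly above those of K326 in 1227 genes (7.42%) and wholly below in 2443 (14.8%). The median log2 difference of Y minus K326 over all genes was -0.08, with quartiles of -0.32 and 0.14, and 9934 genes were below 0 against 6613 above. This shift depends on scaling. After median-of-ratios scaling the median was 0.02 and the calls split into 183 higher and 192 lower, and after quantile normalization they split into 179 and 196. Medians of gene groups are therefore given beside -0.08. Of the calls, 51 of the 152 higher and 102 of the 250 lower held in each of the 6 fits that left out 1 library, and the number of calls without a library was 209, 263 and 223 on leaving out K326 replicate 1, 2 or 3 and 174, 269 and 327 on leaving out Y replicate 1, 2 or 3. Counts within gene groups were less stable. Of 28 lists with at least 3 calls, 25 had a count more than 1.5 times away from the full one in at least 1 of these fits.

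**Figure D1:**
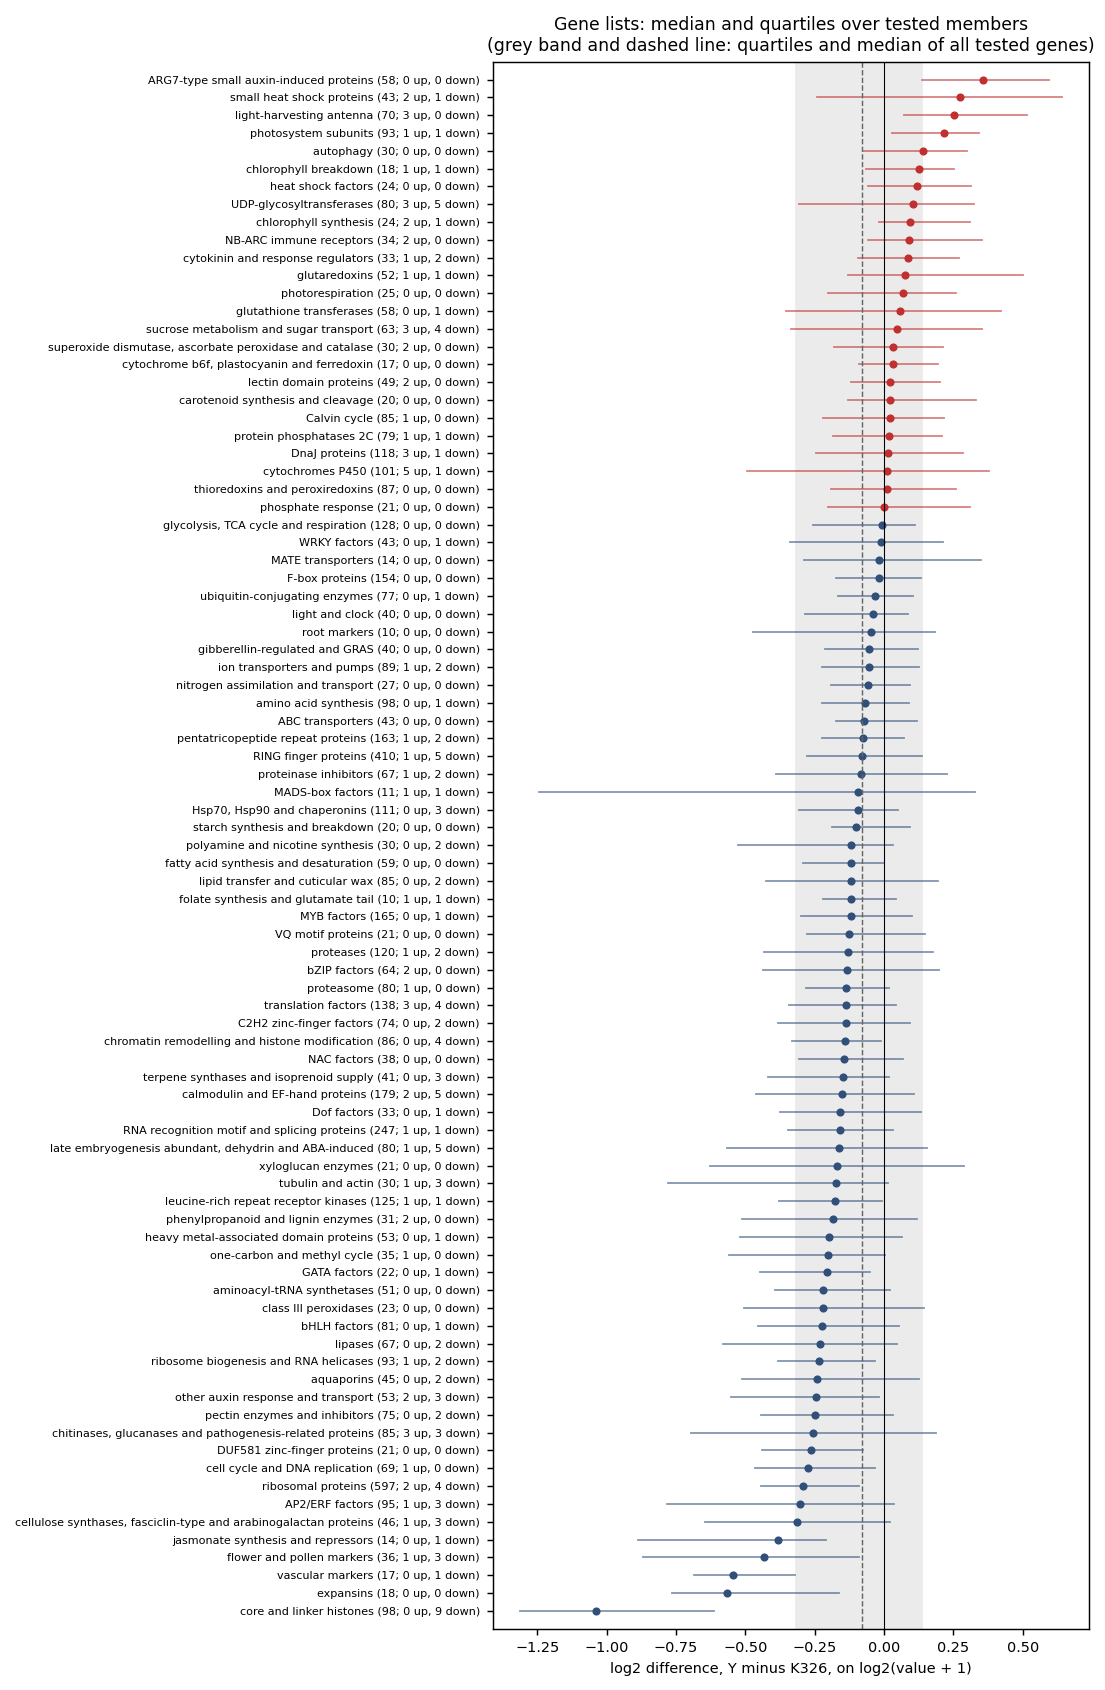
Median log2 difference of Y minus K326 (horizontal axis, log2(value + 1) scale) of each gene list with at least 10 tested genes, as a dot with a line from the lower to the upper quartile of its genes. Labels give the genes tested, called higher and called lower; the dashed line is the median of all genes (-0.08) and the grey band their quartiles (-0.32 to 0.14). Core and linker histones, at -1.04, lie farthest below the band, and the small auxin-induced proteins of the ARG7 type, at 0.36, lie farthest above it.

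Histone genes stood far below the background in Y. Histones are the proteins around which DNA is wound, and a cell makes most of them while it copies its DNA. Of 98 histone genes tested, 90 had a log2 difference below 0, 9 were called lower and none was called higher, and 75 were lower at an unadjusted p below 0.05, against 11% of all genes. Their median log2 difference was -1.04 and stayed between -1.25 and -0.82 when any 1 library was left out, while the number called lower moved between 4 and 14. Summed over the 98 tested histone genes, the signal was 3585, 2707 and 4997 in K326 and 1769, 2154 and 1487 in Y. Every K326 library was above every Y library, and K326 replicate 3 was the highest of the 6.

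The types of histone stood below the background to differing degrees. The core histones had medians of -0.82 over 28 genes of H2A, -1.18 over 20 of H2B, -1.26 over 15 of H3 and -1.10 over 20 of H4, with 2, 4, 2 and 0 calls, all lower. The 20 genes with an H1 domain, the linker between nucleosomes, had a median of -0.45 and 1 call, and some of them also carry a Myb domain and are not linker histones alone. An H2A gene (Nitab4.5_0008504g0010) had 71.5, 47.8 and 113 in K326, while each Y library listed it at 0 (limma adjusted p = 0.00011). An H2B gene (Nitab4.5_0001163g0030) had 18.7, 20.3 and 19.9 in K326 and 0.07, 0.14 and 0 in Y (log2 difference -4.27, SE 0.14, limma adjusted p = 2.94e-05). Another H2B gene (Nitab4.5_0027235g0010) had 25.7, 16.3 and 46.5 in K326 and 0.07, 0 and 0 in Y (log2 difference -4.77, SE 0.35, limma adjusted p = 0.000757). In these genes the difference was near presence and absence, unlike most of the family. An H2A gene expressed in both materials (Nitab4.5_0002342g0140) had 32.8, 31.03 and 42.3 in K326 and 14, 19.3 and 14.8 in Y (log2 difference -1.09, SE 0.19, limma adjusted p = 0.0338), and an H3 gene (Nitab4.5_0000032g0040) had 11.1, 7.56 and 14.2 in K326 and 1.89, 3.22 and 3.03 in Y (log2 difference -1.66, SE 0.26, limma adjusted p = 0.0237). No H4 gene was called. Nitab4.5_0003782g0010, the H4 gene with the highest mean, had 87.6, 66.9 and 143 in K326 and 52, 59.9 and 38.5 in Y (log2 difference -0.92, limma adjusted p = 0.196), without overlap. Calls lost on leaving out 1 library were those of the H2A gene Nitab4.5_0002342g0140 (without K326 replicates 1, 2 and 3 or Y replicates 1 and 3) and the H3 gene Nitab4.5_0000032g0040 (without K326 replicates 1 and 3 or Y replicates 1, 2 and 3), with limma adjusted p up to 0.158. Median-of-ratios scaling ended the call of the H2A gene Nitab4.5_0002342g0140.

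Other genes of chromatin and of dividing cells lay closer to the background. Of 69 genes of the cell cycle and DNA replication, 54 were below 0 with a median of -0.28; none was called lower and 1 was called higher, a gene with C-type cyclin domains (Nitab4.5_0003729g0010; 0.55, 0.24 and 0.31 in K326 and 2.17, 1.58 and 2.41 in Y; limma adjusted p = 0.0404). The summed signal of that list was 344, 325.8 and 396 in K326 and 318, 305 and 334 in Y, which overlapped. Its median deviation was 0.12, 0.04 and 0.21 in the K326 libraries and -0.20, -0.10 and -0.19 in the Y libraries, without overlap. Of the 69 genes, 23 had Y libraries wholly below K326, against 14.8% of all genes, and 2 wholly above, against 7.42%. At an unadjusted p below 0.05 (limma), 17 were lower, against 11% of all genes, and 1 higher. The median stayed between -0.31 and -0.24 without any 1 library. The 12 kinesins, motors that move along microtubules, had a median of -0.25 and no call. Of 86 genes for chromatin remodelling and histone modification, 4 were called lower and none higher. The descriptions of 3 of the 4 name a high mobility group box domain, as found in proteins that bend DNA. Nitab4.5_0002707g0040 had 10.8, 8.64 and 14.96 in K326 and 3.29, 2.72 and 1.88 in Y (log2 difference -1.77, SE 0.24, limma adjusted p = 0.0137), and Nitab4.5_0007445g0040 had 9.43, 5.27 and 11.3 in K326 and 2.07, 2.40 and 1.18 in Y (log2 difference -1.72, SE 0.30, limma adjusted p = 0.0363). The third is described as a YABBY protein (Nitab4.5_0006268g0040), so its place among chromatin genes rests on the domain name alone. YABBY proteins mark the lower side of a young leaf, and all 6 tested YABBY genes were below 0, with a median of -0.53. The called member had 19.7, 22.1 and 22.7 in K326 and 12.02, 12.1 and 12.7 in Y (log2 difference -0.76, SE 0.13, limma adjusted p = 0.0338), so that its libraries were close together within each material. Leaving out 1 library ended the call of the C-type cyclin gene and the YABBY gene (without any of the 6 libraries), Nitab4.5_0002707g0040 (without K326 replicate 1) and Nitab4.5_0007445g0040 (without K326 replicates 1 and 3 or Y replicates 1, 2 and 3) (limma adjusted p up to 0.183). Quantile normalization ended the call of Nitab4.5_0007445g0040. Median-of-ratios scaling and quantile normalization ended the call of the YABBY gene. In bulk leaf RNA, fewer cells of a type and less RNA per cell of that type cannot be told apart.

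Tubulins, the subunits of microtubules, stood below the background. Of 11 tubulin genes, 10 were below 0 with a median of -0.99, and 3 were called lower. An alpha tubulin (Nitab4.5_0003624g0030) had 213, 240.2 and 241 in K326 and 89.8, 119 and 89.2 in Y (log2 difference -1.22, SE 0.15, limma adjusted p = 0.0103), that is 231 ± 15.9 in K326 and 99.3 ± 16.9 in Y (SD, n = 3 each). A second tubulin (Nitab4.5_0006701g0010) had 28.8, 32.6 and 32.9 in K326 and 12.6, 13.3 and 9.23 in Y (log2 difference -1.36, SE 0.17, limma adjusted p = 0.0102). A beta tubulin (Nitab4.5_0002405g0110) had 6.13, 4.57 and 5.28 in K326 and 0.7, 1.58 and 0.67 in Y (log2 difference -1.70, SE 0.22, limma adjusted p = 0.0118). In all 3 genes the K326 and Y libraries were well separated. With 1 library left out, the call was lost for Nitab4.5_0003624g0030 (without K326 replicates 2 and 3 or Y replicate 1), Nitab4.5_0006701g0010 (without K326 replicate 3 or Y replicate 1) and Nitab4.5_0002405g0110 (without K326 replicates 1 and 3 or Y replicate 1), at limma adjusted p up to 0.0673.

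The phosphate-induced protein 1 family, whose members are known in Arabidopsis as the EXORDIUM proteins that promote cell expansion, had the lowest median of all 245 description families with at least 10 tested genes. All 13 tested members were below 0, with a median of -1.28, and 12 of the 13 had Y libraries wholly below those of K326, against 14.8% of all genes. Of these, 3 members were called lower. Nitab4.5_0005755g0010 had 15.2, 10.9 and 13.2 in K326 and 4.19, 5.63 and 4.53 in Y (log2 difference -1.28, SE 0.18, limma adjusted p = 0.0146). Nitab4.5_0000786g0240 had 6.59, 5.58 and 14.02 in K326 and 1.11, 1.55 and 1.48 in Y (log2 difference -1.94, SE 0.32, limma adjusted p = 0.0288). Nitab4.5_0001896g0050 had 1.73, 1.74 and 4.93 in K326, while each Y library listed it at 0 (limma adjusted p = 0.0441). In the last pair of genes K326 replicate 3 was well above the other K326 libraries. On leaving out 1 library, the call did not hold for Nitab4.5_0005755g0010 (without K326 replicates 1 and 3 or Y replicate 1), Nitab4.5_0000786g0240 (without K326 replicate 1 or Y replicates 1, 2 and 3) and Nitab4.5_0001896g0050 (without K326 replicates 1 and 2 or Y replicates 1, 2 and 3) (limma adjusted p up to 0.167). Median-of-ratios scaling and quantile normalization ended the call of Nitab4.5_0001896g0050. The median of the family stayed between -1.39 and -1.08 without any 1 library.

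**Figure D2:**
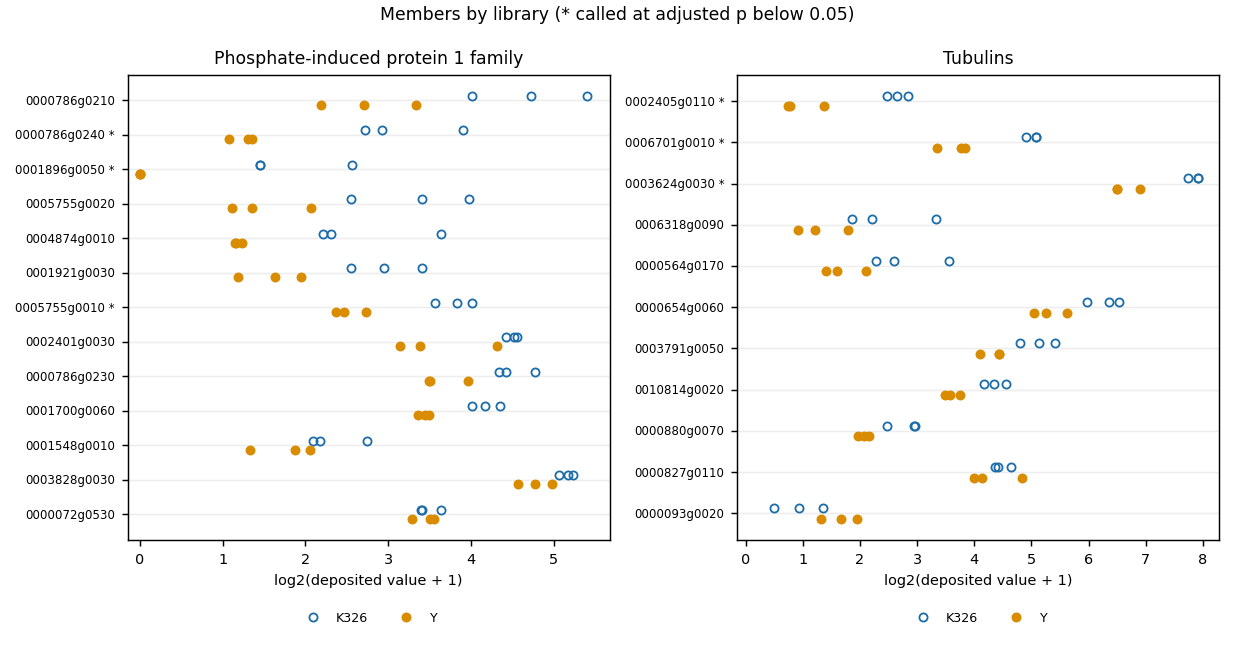
Values of the 13 phosphate-induced protein 1 genes and the 11 tubulin genes in each library of K326 and Y, on a horizontal axis of log2(deposited value + 1); an asterisk marks a called gene. The Y points lie wholly below the K326 points except in 1 phosphate-induced gene and 2 tubulin genes at the foot of the panels.

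Genes of the growing cell wall lay below the background by smaller amounts. The 18 expansins, which loosen the wall so that a cell can enlarge, had a median of -0.57 with 15 below 0, of which 9 at an unadjusted p below 0.05, and no member was called. The expansin with the highest mean (Nitab4.5_0003761g0030) had 70.5, 83.2 and 57.8 in K326 and 59.7, 44.6 and 42.9 in Y, which overlapped. Of 11 cellulose synthases, 10 were below 0 (median -0.46) and Nitab4.5_0000268g0040 was called, with 11.6, 12.4 and 9.63 in K326 and 2.40, 2.24 and 3.69 in Y (log2 difference -1.71, SE 0.19, limma adjusted p = 0.00656). The call held without each library. Of 22 proteins with the fasciclin-type FAS1 domain, which sit at the cell surface, 17 were below 0 (median -0.36) and 2 were called, Nitab4.5_0000163g0200 with 11.98, 11.4 and 12.7 in K326 and 3.71, 4.10 and 5.47 in Y and Nitab4.5_0005524g0020 with 23.6, 25.4 and 28.6 in K326 and 11.8, 11.1 and 13.97 in Y (limma adjusted p = 0.011 and 0.0193). Of 75 pectin enzymes and inhibitors (median -0.25), 2 pectinesterase inhibitor domain genes were called lower. Of these, Nitab4.5_0000072g0600 had 86.9, 90.8 and 83.7 in K326 and 21.9, 39.8 and 30.8 in Y (log2 difference -1.51, SE 0.22, limma adjusted p = 0.0175). The 21 xyloglucan enzymes had a median of -0.17 and no call. Cellulose synthases also stand in the vascular marker list with sieve-element occlusion proteins and laccases. The summed signal of its 17 tested genes was 241, 222 and 239 in K326 and 137, 159 and 179.5 in Y, with no overlap, and 16 of the 17 were below 0. The part of vascular tissue in these differences was not tested. Without 1 library at a time, limma adjusted p rose above 0.05, up to 0.105, for Nitab4.5_0000163g0200 (without K326 replicates 1 and 3 or Y replicate 1), Nitab4.5_0005524g0020 (without K326 replicates 1, 2 and 3 or Y replicates 1 and 2) and the pectinesterase inhibitor domain gene (without K326 replicates 1, 2 and 3 or Y replicate 3).

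A glycine-rich protein gene (Nitab4.5_0000037g0350), of a class of wall proteins, had 4202, 4012 and 2831 in K326 and 1059, 1231 and 1296 in Y (log2 difference -1.61, SE 0.18, limma adjusted p = 0.00582), with all Y libraries far below the K326 libraries. The other tested gene of that description, Nitab4.5_0000037g0280 on the same scaffold, had 3184, 1322 and 1146 in K326 and 1998, 1687 and 2732 in Y (log2 difference 0.31, limma adjusted p = 0.75), and its libraries overlapped. A gene with a pollen Ole e 1 and extensin domain (Nitab4.5_0003807g0030), a class of secreted wall proteins, had 112, 117 and 117 in K326 and 56.8, 68.3 and 59.01 in Y (log2 difference -0.90, SE 0.13, limma adjusted p = 0.0158). Of 45 aquaporins, the channels for water, 2 were called lower and none higher (median -0.24). Nitab4.5_0014443g0010 had 43.6, 43.9 and 36.7 in K326 and 19.9, 17.04 and 18.9 in Y and Nitab4.5_0008552g0030 had 58.4, 59.7 and 81.7 in K326 and 28.9, 25.7 and 30.1 in Y (limma adjusted p = 0.0104 and 0.0174), while the aquaporin with the highest mean (Nitab4.5_0001615g0140) had 1049.4, 1005 and 818 in K326 and 999.7, 707 and 1357 in Y, which overlapped. Fits without 1 library lost Nitab4.5_0003807g0030 (without K326 replicates 1, 2 and 3 or Y replicate 1), Nitab4.5_0014443g0010 (without K326 replicates 1 and 2 or Y replicate 1) and Nitab4.5_0008552g0030 (without K326 replicates 1 and 2 or Y replicates 1 and 2), with limma adjusted p up to 0.0978.

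**Figure D3:**
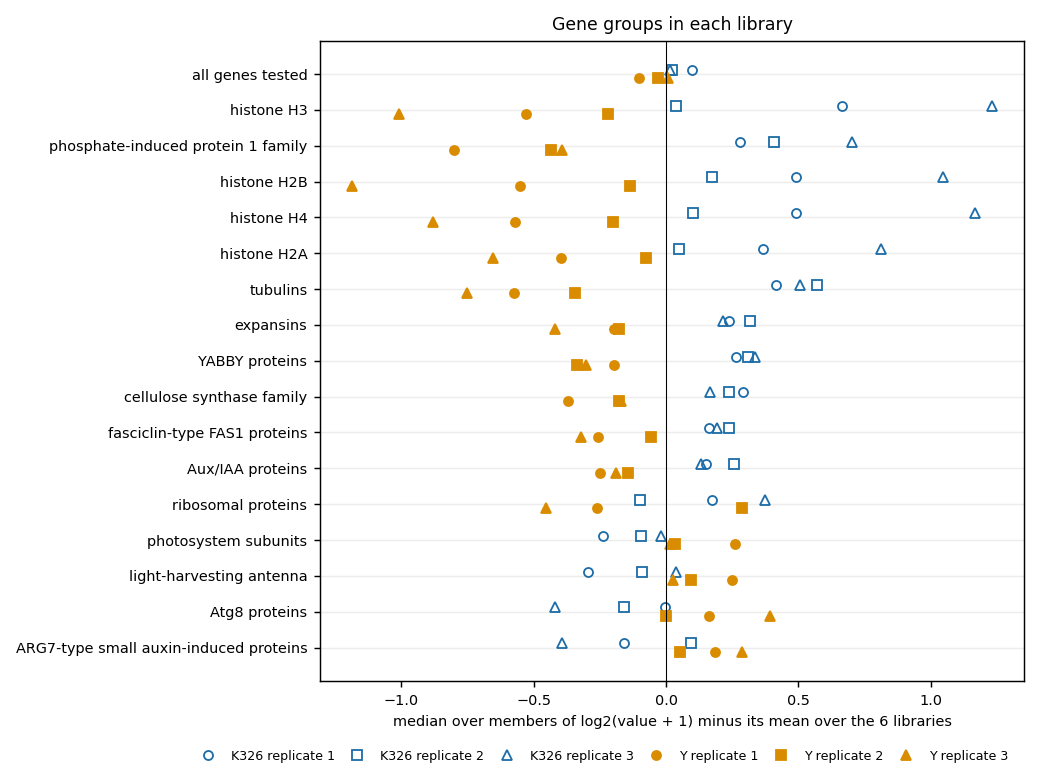
For all tested genes and 16 gene groups, the median over genes of each library's deviation from the gene's mean (horizontal axis, log2(value + 1) scale), with K326 and Y libraries in separate colours. The H2B histones range from -1.19 in Y replicate 3 to 1.05 in K326 replicate 3 without overlap of the materials, whereas the ribosomal proteins of the materials overlap.

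Genes of light capture stood on the other side of the background. Of 70 light-harvesting antenna genes, whose proteins hold the chlorophyll that feeds light energy to the photosystems, 57 were above 0 with a median of 0.25, 3 were called higher and none lower, and 20 were higher at an unadjusted p below 0.05, against 5.35% of all genes. The sum of the 70 genes was 31366, 37836 and 42936 in K326 and 45013, 38206 and 41788 in Y, which overlapped. The antenna gene with the firmest call (Nitab4.5_0000471g0030) had 54.9, 58.9 and 54.9 in K326 and 149, 159 and 159 in Y (log2 difference 1.45, SE 0.12, limma adjusted p = 0.00116). Its call held in each alternative fit in which it was tested. Nitab4.5_0000982g0200 had 49.7, 73.8 and 67.9 in K326 and 155, 129 and 139 in Y (log2 difference 1.14, SE 0.18, limma adjusted p = 0.0253). Nitab4.5_0000495g0040 had 245, 314 and 461 in K326 and 849, 768 and 734 in Y (log2 difference 1.25, SE 0.23, limma adjusted p = 0.045). No Y library of the 3 genes reached down to the K326 values. Calls lost on leaving out 1 library were those of Nitab4.5_0000982g0200 (without K326 replicates 1 and 3 or Y replicates 1, 2 and 3) and Nitab4.5_0000495g0040 (without K326 replicates 1 and 2 or Y replicates 1, 2 and 3), with limma adjusted p up to 0.195. Median-of-ratios scaling ended the call of Nitab4.5_0000495g0040.

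The 93 photosystem subunit genes had a median of 0.21, 72 of them above 0, with 1 called in each direction. A gene for PsbW (Nitab4.5_0001044g0040), a small protein of photosystem II, rose from 87.8, 121 and 82.6 to 279.9, 276 and 211 (log2 difference 1.40, SE 0.19, limma adjusted p = 0.0151). The 3 genes of its description summed to 4870 ± 451 in K326 and 5648 ± 572 in Y (SD, n = 3), which overlapped. A gene with a PsbP domain (Nitab4.5_0003160g0050), a family of the oxygen-evolving complex, fell from 144, 139 and 165 to 91.2, 89.2 and 79.4 (log2 difference -0.78, SE 0.13, limma adjusted p = 0.0324). Leaving out 1 library ended the call of the PsbW gene (without K326 replicates 1 and 3 or Y replicates 1 and 2) and the PsbP gene (without any of the 6 libraries) (limma adjusted p up to 0.127). Median-of-ratios scaling ended the call of the PsbP gene. Photosynthesis beyond the photosystems was near or a little above the background. The 17 genes of the cytochrome b6f complex, plastocyanin and ferredoxin had a median of 0.03, the 85 of the Calvin cycle 0.02 and the 25 of photorespiration 0.07. A triosephosphate isomerase gene (Nitab4.5_0000272g0170), of a step shared by carbon fixation and glycolysis, was the single call among them, with 13.1, 13.6 and 15.01 in K326 and 23.2, 25.9 and 25.7 in Y (log2 difference 0.80, SE 0.13, limma adjusted p = 0.0298). That call was lost without any of the 6 libraries (limma adjusted p up to 0.132). The 6 triosephosphate isomerase genes of that description summed to 753 ± 24.5 in K326 and 787 ± 41.3 in Y (SD, n = 3), which overlapped. The Rubisco small subunit gene with the highest mean (Nitab4.5_0002207g0050) had 24895, 26412 and 33318 in K326 and 24596, 17431 and 28076 in Y (log2 difference -0.29, limma adjusted p = 0.537), which overlapped.

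Genes of pigment turnover differed as single copies rather than as groups. The 24 genes of chlorophyll synthesis had a median of 0.09, with 2 called higher and 1 lower, and the 18 of chlorophyll breakdown 0.13, with 1 called in each direction. Magnesium chelatase commits the porphyrin to chlorophyll, and 2 genes whose descriptions share the magnesium chelatase, AAA+ ATPase and von Willebrand factor A terms were called in opposite directions. The one on scaffold 0000733 (Nitab4.5_0000733g0210) had 29.3, 28.2 and 38.1 in K326 and 0.03, 0.01 and 0 in Y (log2 difference -5.01, SE 0.16, limma adjusted p = 2.94e-05). The other (Nitab4.5_0001663g0090), whose description also names subunit D, had 38.97, 41.6 and 47.4 in K326 and 72.1, 84.3 and 77.99 in Y (log2 difference 0.86, SE 0.14, limma adjusted p = 0.0264). The first was near 0 in every Y library, and the second was higher in every Y library than in any K326 library. A short-chain dehydrogenase gene of the protochlorophyllide reductase type (Nitab4.5_0000207g0190) had 0.9, 1.01 and 1.14 in K326 and 3.30, 7.10 and 4.34 in Y (log2 difference 1.50, SE 0.25, limma adjusted p = 0.0313). The 5 genes of its description summed to 224 ± 76.8 in K326 and 216 ± 25.8 in Y (SD, n = 3), which overlapped. With 1 library left out, the call was lost for the subunit D gene (without any of the 6 libraries) and Nitab4.5_0000207g0190 (without K326 replicates 1, 2 and 3 or Y replicates 2 and 3), at limma adjusted p up to 0.116.

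Pheophorbide a oxygenase opens the ring of chlorophyll during its breakdown, and 4 tested genes shared a description that names it with a Rieske iron-sulphur domain. The description gives protein domains and does not show which of the 4 encode that enzyme. Nitab4.5_0002162g0210 rose from 34.7, 30.8 and 26.1 to 74.4, 74.5 and 74.04 (log2 difference 1.27, SE 0.14, limma adjusted p = 0.00654). Its Y values were almost equal. Nitab4.5_0003134g0120 fell from 2.96, 4.72 and 2.86 to 0, 0 and 0.03 (log2 difference -2.14, SE 0.22, limma adjusted p = 0.00402). Summed over the 4 genes, the signal was 94.1 ± 5.81 in K326 and 144 ± 16.7 in Y (SD, n = 3), a sum without a test. The 5 staygreen genes, which help remove magnesium from chlorophyll, had a median of 0.18 and no call. The staygreen gene with the highest mean (Nitab4.5_0000847g0060) had 132, 141 and 126 in K326 and 185, 156 and 141 in Y (log2 difference 0.27, limma adjusted p = 0.419), without overlap. The 20 carotenoid genes had a median of 0.02 and no call (limma), with none at an unadjusted p below 0.05. A phytoene synthase-type gene (Nitab4.5_0000091g0360), from the entry into the carotenoid pathway, had 282, 301 and 324 in K326 and 268, 257 and 207 in Y (log2 difference -0.32, limma adjusted p = 0.338).

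The dihydroneopterin aldolase gene Nitab4.5_0008674g0010 had 15.3, 19.5 and 9.09 in K326, while each Y library listed it at 0 (limma adjusted p = 0.000553), a call that held in each alternative fit. Its neighbour on scaffold 0008674, an Ataxin-2 C-terminal domain gene (Nitab4.5_0008674g0020), was the only other tested gene there and had 16.6, 22.2 and 14.9 in K326 and 0.05, 0 and 0.14 in Y (log2 difference -4.14, SE 0.19, limma adjusted p = 7.81e-05). Both were thus expressed in K326 and near 0 in Y. The 10 tested genes of folate synthesis and of the glutamate tail had a median of -0.12, and 1 other was called, Nitab4.5_0000383g0060, described as a gamma-glutamyl hydrolase, which trims the glutamate tail, with 4.55, 2.40 and 2.81 in K326 and 11.2, 12.6 and 11.9 in Y (log2 difference 1.63, SE 0.21, limma adjusted p = 0.0104). The 35 genes of the single-carbon and methyl cycle had a median of -0.20, 26 of them below 0. The only call was a methylenetetrahydrofolate reductase gene (Nitab4.5_0003263g0060), which makes the methyl donor for methionine, with 9.28, 10.9 and 9.48 in K326 and 17.7, 19.9 and 20.1 in Y (log2 difference 0.89, SE 0.14, limma adjusted p = 0.0233). On leaving out 1 library, the call did not hold for the hydrolase gene (without K326 replicate 3 or Y replicate 1) and the reductase gene (without any of the 6 libraries) (limma adjusted p up to 0.108). A serine hydroxymethyltransferase gene (Nitab4.5_0006354g0020) varied widely within both materials, with 66.98, 52.02 and 259 in K326 and 60.2, 0.66 and 381 in Y (log2 difference -1.53, limma adjusted p = 0.736).

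Part of the lower calls consisted of genes expressed in K326 and near 0 in Y. With near 0 set at 0.5 or less in all 3 libraries of a material and expressed set at a mean of at least 5 in the other, 49 genes were near 0 in Y, of which 46 were called, and 20 were listed at 0 in all 3 Y libraries. The called ones made up 18.4% of the lower calls. In the reverse direction 11 genes were near 0 in K326, all called, which is 7.24% of the higher calls, and 2 of them were listed at 0 throughout K326. Since the rule uses the compared values, these counts are a description. Of the 49, 5 were histone genes (4 of H2B and 1 of H2A) and 9 are described as Unknown, and no other full description occurred more than once. Among those near 0 in Y were an E2 ubiquitin-conjugating enzyme (Nitab4.5_0003779g0060; 108, 103 and 82.01 in K326 and 0.34, 0.13 and 0.23 in Y), which hands ubiquitin to target proteins, and a class III aminotransferase (Nitab4.5_0002232g0040; 34.7, 30.5 and 25.5 in K326 and 0.24, 0.09 and 0 in Y). A lipid transfer protein-type gene (Nitab4.5_0000212g0010) had 26.4, 25.4 and 48.9 in K326 and 0.1, 0.03 and 0.03 in Y, and a GATA zinc-finger gene (Nitab4.5_0000147g0030) had 9.39, 9.24 and 9.70 in K326 and 0.07, 0.07 and 0.08 in Y (log2 difference -3.28, SE 0.14, limma adjusted p = 6.32e-05). A leucine-rich repeat kinase gene (Nitab4.5_0012487g0030), of a family of cell-surface receptors, had 10.9, 10.8 and 12.4 in K326 and 0.01, 0 and 0.01 in Y (log2 difference -3.62, SE 0.15, limma adjusted p = 4.61e-05). In each of these genes, which were chosen by that rule, the lowest K326 value was many times the highest Y value.

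Among the genes near 0 in K326, a MADS-box developmental regulator (Nitab4.5_0014584g0010) had 0.12, 0 and 0.16 in K326 and 29.5, 19.2 and 33.8 in Y (log2 difference 4.67, SE 0.23, limma adjusted p = 0.000113). A voltage-gated chloride channel gene (Nitab4.5_0001220g0060) had 0.49, 0 and 0 in K326 and 8.68, 13.8 and 6.15 in Y (log2 difference 3.14, SE 0.31, limma adjusted p = 0.00342). A manganese or iron superoxide dismutase gene (Nitab4.5_0002279g0090), of a family that removes superoxide, had 0.45, 0 and 0 in K326 and 7.03, 5.94 and 6.72 in Y (log2 difference 2.74, SE 0.21, limma adjusted p = 0.000885). A PRELI domain gene (Nitab4.5_0008647g0010), of a family of mitochondrial lipid carriers, had a listed 0 in each K326 library and 7.78, 4.83 and 7.33 in Y (limma adjusted p = 0.000682). By the rule that chose these genes, all their Y values stood above the K326 values. Among the higher genes with measurable levels in both materials, a PC4-type transcriptional coactivator (Nitab4.5_0001310g0060) had 14.5, 12.3 and 17.2 in K326 and 126, 148 and 111 in Y (log2 difference 3.04, SE 0.18, limma adjusted p = 0.000256).

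**Figure D4:**
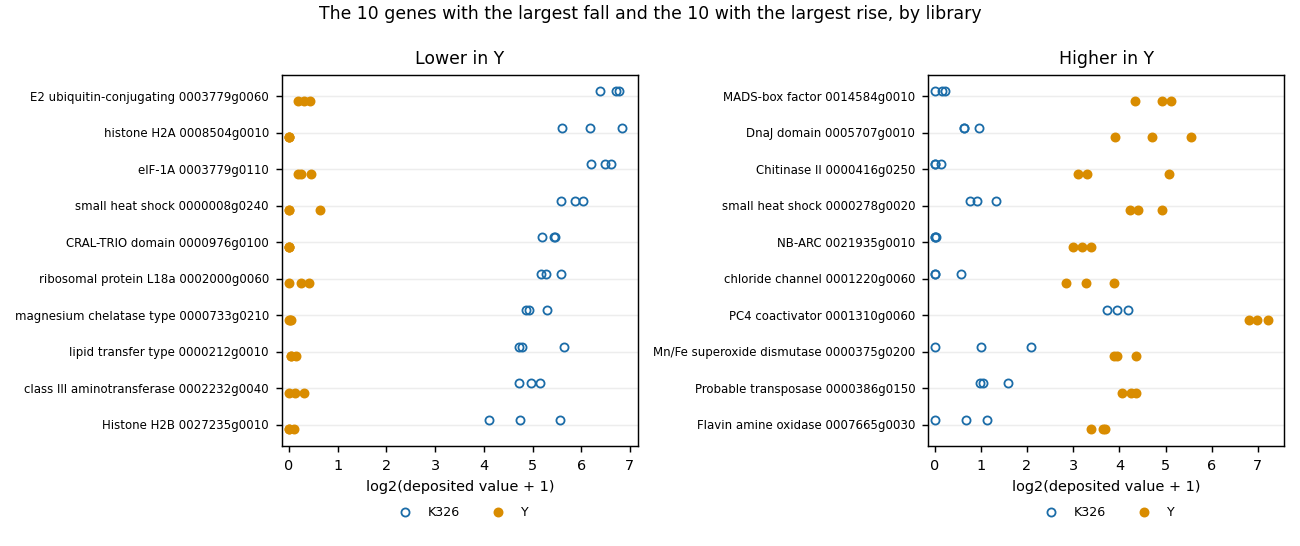
Values in each library of the 10 genes with the lowest and the 10 with the highest log2 difference among called genes with a description, no overlap and, in the higher material, a mean of 5 or more, on a horizontal axis of log2(deposited value + 1). In most of these genes the 3 libraries of the lower material sit at or near 0.

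The gene identifiers name the scaffold of the genome draft on which a gene lies, and the called genes could be counted by scaffold. The 402 called genes lay on 344 of 7004 scaffolds that held a tested gene. On 42 scaffolds there were at least 2 called genes, 100 genes in all, and on 29 of the 42 all went in the same direction. Of all genes tested, 0.919% were called higher and 1.51% lower. These 42 scaffolds held 2 to 15 tested genes each, and how many would share calls at those shares was not tested. On 8 scaffolds there were at least 3. All 6 tested genes of scaffold 0000826 were lower. They are described as a putative S-formylglutathione hydrolase (Nitab4.5_0000826g0060; 13.5, 11.9 and 15.6 in K326), a Brix domain ribosome biogenesis protein (Nitab4.5_0000826g0070; 19.6, 14.5 and 17.3), a triose-phosphate transporter domain (Nitab4.5_0000826g0190; 2.95, 3.61 and 3.65), a glycerol-3-phosphate dehydrogenase (Nitab4.5_0000826g0200; 4.06, 4.85 and 4.79), an undescribed protein (Nitab4.5_0000826g0210; 9.78, 12.1 and 11.3) and a nucleoporin-interacting component (Nitab4.5_0000826g0280; 7.25, 7.32 and 6.72). In Y, 4 of the 6 were listed at 0 in all libraries, and the highest value of the other pair was 0.09.

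On scaffold 0003779, 5 of 7 tested genes were lower, among them the E2 gene above, the translation initiation factor eIF-1A gene Nitab4.5_0003779g0110 (96.8, 88.99 and 72.4 in K326 and 0.36, 0.14 and 0.18 in Y) and a DUF2358 gene (Nitab4.5_0003779g0130; 22.1, 26.3 and 20.2 in K326 and zeros in Y). The remaining pair of genes on that scaffold was not called. All 4 tested genes of scaffold 0001049 were lower, and so were all 4 of scaffold 0000733. The latter hold an AN1-type zinc finger, a remorin, a B3 DNA-binding domain and the magnesium chelatase gene described above. Scaffold 0001663 holds genes with 3 of these kinds of description, and none of its 10 tested genes was called lower. Its remorin gene (Nitab4.5_0001663g0020), of a plant membrane-raft family, had 24.1, 32.1 and 18.3 in K326 and 45.6, 40.8 and 76.4 in Y (log2 difference 1.08, limma adjusted p = 0.135), while the remorin gene of scaffold 0000733 (Nitab4.5_0000733g0190) had 5.70, 7.35 and 4.04 in K326 and 0.08, 0.08 and 0 in Y (log2 difference -2.64, SE 0.22, limma adjusted p = 0.00166). Besides its magnesium chelatase gene, an elongation factor 4 gene (Nitab4.5_0001663g0160) of scaffold 0001663 was called higher, with 67.9, 80.7 and 89.7 in K326 and 160.5, 140.4 and 165 in Y (log2 difference 0.96, limma adjusted p = 0.0244). It was chosen for its scaffold after its values were seen. Without 1 library at a time, limma adjusted p rose above 0.05, up to 0.131, for the elongation factor 4 gene (without K326 replicates 1 and 2 or Y replicates 1 and 3).

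Calls in the higher direction shared a scaffold as well. On scaffold 0002262, 4 of 7 tested genes were higher and none lower. An undescribed gene (Nitab4.5_0002262g0090) had 173, 158 and 158 in K326 and 525, 564 and 316 in Y (log2 difference 1.48, SE 0.23, limma adjusted p = 0.0237), and a bZIP factor of the G-box binding type (Nitab4.5_0002262g0160) had 8.84, 9.70 and 9.27 in K326 and 34.1, 27.5 and 24.01 in Y (log2 difference 1.51, SE 0.16, limma adjusted p = 0.00526). An eIF-1A gene (Nitab4.5_0002262g0150) had 72.7, 61.1 and 63.1 in K326 and 136, 138 and 126 in Y (log2 difference 1.01, SE 0.13, limma adjusted p = 0.0103). The fourth is a GH3 gene given with the auxin genes. Scaffold 0000309 held 3 higher genes, 2 of them listed at 0 throughout K326. Of the latter, a mitochondrial transcription termination factor domain gene (Nitab4.5_0000309g0300) had 3.52, 3.80 and 2.47 in Y (limma adjusted p = 0.00328). Fits without 1 library lost the undescribed gene (without K326 replicates 1, 2 and 3 or Y replicates 1 and 2) and the eIF-1A gene (without K326 replicate 2 or Y replicate 1), with limma adjusted p up to 0.12. Coordinates of the scaffolds on the chromosomes were not used here.

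**Figure D5:**
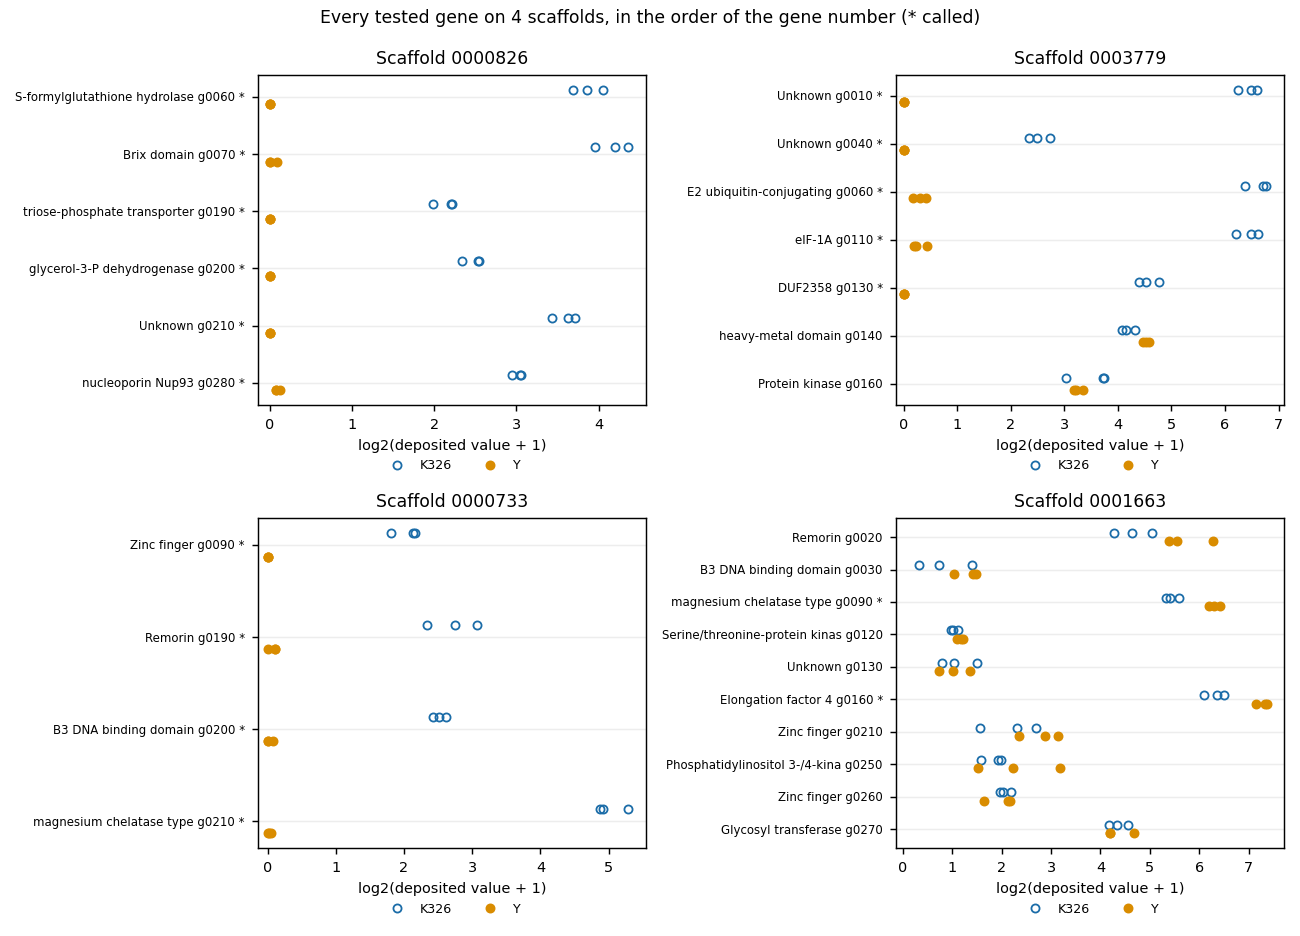
Values in each library of every tested gene on scaffolds 0000826, 0003779, 0000733 and 0001663, on a horizontal axis of log2(deposited value + 1). On scaffold 0000826 the Y points of all 6 genes lie at or near 0, and on scaffold 0001663 no gene has its Y points at 0.

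Genes with the same full description were also compared with each other. Of 120 descriptions with 2 to 6 tested genes and at least 1 call, 54 held higher calls only, 57 lower calls only and 9 both. In these 9 the sum over copies could differ less than the single copies. The 2 eIF-1A genes, 1 called in each direction, summed to 152 ± 17.1 in K326 and 133 ± 6.55 in Y (SD, n = 3 in each comparison of sums). The 2 PC4-type coactivator genes summed to 54.3 ± 4.11 in K326 and 145 ± 19.7 in Y. The lower PC4-type gene (Nitab4.5_0000188g0350) had 40.6, 37.5 and 40.8 in K326 and 15.4, 18.02 and 15.3 in Y (log2 difference -1.24, SE 0.13, limma adjusted p = 0.00499), so the copy that was higher in Y outweighed it. The 5 proteinase inhibitors of the Pin2 type, which block digestive proteases of insects, summed to 145 ± 27.2 in K326 and 257 ± 34.3 in Y. Of them, Nitab4.5_0006133g0030 had 100.1, 83.4 and 63.2 in K326 and 265, 214 and 219.8 in Y and Nitab4.5_0000363g0010 had 31.8, 13.02 and 11.4 in K326 and 0, 0.11 and 0 in Y (limma adjusted p = 0.011 and 0.00205). The 4 MADS-box genes that share a description with Nitab4.5_0014584g0010 summed to 15.2 ± 1.85 in K326 and 36.8 ± 5.19 in Y, where a lower copy (Nitab4.5_0012816g0020) had 8.72, 6.24 and 6.52 in K326 and 0, 0.67 and 0.81 in Y (log2 difference -2.48, SE 0.27, limma adjusted p = 0.00516). The sums carry no test. Calls lost on leaving out 1 library were those of Nitab4.5_0006133g0030 (without Y replicate 1), with limma adjusted p up to 0.0685.

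The genes of translation had medians below that of all genes. Of 597 ribosomal protein genes, 488 were below 0 with a median of -0.29, yet 2 were called higher and 4 lower, 1.01% against 2.43% of all genes. The deviations of the libraries overlapped between the materials. The median deviation over these genes was 0.17, -0.10 and 0.37 in the K326 libraries and -0.26, 0.29 and -0.45 in the Y libraries, and the median difference moved from -0.50 to -0.13 with 1 library left out. The 51 aminoacyl-tRNA synthetases had a median of -0.22 with no call, the 93 genes of ribosome biogenesis and RNA helicases -0.24 with 1 higher and 2 lower (3.23% called), and the 138 translation factors -0.14 with 3 higher and 4 lower (5.07% called). Without 1 library, 1 to 3 translation factors were called higher and 2 to 4 lower. A ribosomal L18a gene (Nitab4.5_0002000g0060), of the cytosolic large subunit, had 37.97, 34.9 and 47.2 in K326 and 0.19, 0 and 0.32 in Y (log2 difference -5.13, SE 0.18, limma adjusted p = 3.41e-05). A gene for the plastid-type ribosomal protein PSRP-3 (Nitab4.5_0002207g0110) had 16.1, 16.9 and 17.7 in K326 and 50.1, 63.1 and 40.3 in Y (log2 difference 1.52, SE 0.18, limma adjusted p = 0.00846). The genes differed in direction, and the L18a gene was near 0 in Y. The 5 genes of the PSRP-3 description summed to 380 ± 77.4 in K326 and 441 ± 106 in Y (SD, n = 3), which overlapped. A gene for subunit H of the initiation factor eIF3 (Nitab4.5_0012487g0010) had 9.39, 7.33 and 8.13 in K326 and 0, 0.05 and 0 in Y (log2 difference -3.19, SE 0.16, limma adjusted p = 0.000145), and a gene described as a factor 2B or methylthioribose phosphate isomerase-type protein (Nitab4.5_0006512g0010) had 1.69, 1.17 and 1.19 in K326 and 12.2, 13.3 and 12.01 in Y (log2 difference 2.53, SE 0.15, limma adjusted p = 0.000304). Leaving out 1 library ended the call of the PSRP-3 gene (without K326 replicate 1 or Y replicate 1) (limma adjusted p up to 0.0549).

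Within the auxin genes, the families lay on opposite sides of the background. The 58 small auxin-induced proteins of the ARG7 type, early response genes of auxin, had a median of 0.36, with 48 above 0 and no call (limma). At an unadjusted p below 0.05, 8 were higher and 2 lower. Their median deviation was -0.16, 0.10 and -0.39 in the K326 libraries and 0.19, 0.05 and 0.29 in the Y libraries, which overlapped. Nitab4.5_0010792g0020, of this family, had 32.9, 20.9 and 22.1 in K326 and 45.6, 48.7 and 42.02 in Y (log2 difference 0.85, limma adjusted p = 0.0915), without overlap. The 36 Aux/IAA proteins, which repress the auxin response, had a median of -0.28, with 30 below 0 and 2 called lower. Nitab4.5_0007553g0010 had 4.04, 6.89 and 3.17 in K326, while each Y library listed it at 0 (limma adjusted p = 0.00493), and Nitab4.5_0000351g0240 had 5.41, 3.11 and 7.94 in K326 and 0.68, 0.47 and 0.3 in Y (log2 difference -2.07, SE 0.30, limma adjusted p = 0.0177). Of the 5 auxin efflux carriers, which move auxin out of cells, Nitab4.5_0000464g0020 rose from 3.10, 1.76 and 3.86 to 14.9, 22 and 16.2 (log2 difference 2.28, SE 0.25, limma adjusted p = 0.00593) and Nitab4.5_0007384g0040 fell from 2.44, 4.54 and 2.75 to 0.15, 0.05 and 0 (log2 difference -1.96, SE 0.24, limma adjusted p = 0.00839). Their libraries did not overlap. A GH3 gene (Nitab4.5_0002262g0110), of a family that couples hormones to amino acids, had 6.07, 2.61 and 4.84 in K326 and 16.6, 12.9 and 14.8 in Y (log2 difference 1.56, SE 0.26, limma adjusted p = 0.0322). With 1 library left out, the call was lost for the Aux/IAA gene Nitab4.5_0000351g0240 (without K326 replicate 1 or Y replicates 1, 2 and 3) and the GH3 gene (without K326 replicate 3 or Y replicates 1, 2 and 3), at limma adjusted p up to 0.153. The difference between the ARG7-type and the Aux/IAA families was not tested.

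Of 14 genes of jasmonate synthesis and its repressors, 13 were below 0 (median -0.38). The single call was lower, a TIFY repressor gene (Nitab4.5_0000343g0360) with 25.9, 29.9 and 28.4 in K326 and 12.4, 11.1 and 16.9 in Y (log2 difference -1.03, SE 0.18, limma adjusted p = 0.0384). An allene oxide cyclase gene (Nitab4.5_0004118g0110), of jasmonate synthesis, had 47.9, 49.1 and 33.2 in K326 and 23.2, 16.3 and 37.5 in Y (log2 difference -0.79, limma adjusted p = 0.276), which overlapped through Y replicate 3. The 80 late embryogenesis abundant, dehydrin and abscisic-acid-induced genes had a median of -0.16, with 1 called higher and 5 lower, against 0.919% and 1.51% of all genes. All 5 lower genes are of the LEA-14 type, which is a common description. It stands alone for 38 tested genes, of which 4 were called lower, and with a water stress domain for 2, of which 1 was called lower. Nitab4.5_0006120g0030 had 25.7, 30.6 and 29.6 in K326 and 9.86, 7.50 and 10.2 in Y (log2 difference -1.55, SE 0.16, limma adjusted p = 0.00474), Nitab4.5_0012011g0020 had 3.12, 3.34 and 2.12 in K326 and 0.19, 0.05 and 0.29 in Y, and Nitab4.5_0003105g0020 had 2.42, 2.10 and 2.96 in K326 and only listed zeros in Y. The 33 cytokinin genes and response regulators had a median of 0.08, with 1 higher and 2 lower. A LOG gene (Nitab4.5_0001540g0080), whose enzyme releases active cytokinin, had a listed 0 in each K326 library and 4.76, 2.03 and 4.83 in Y (limma adjusted p = 0.0112). The 5 genes of its description summed to 120 ± 13.2 in K326 and 139 ± 7.04 in Y (SD, n = 3), which overlapped. A response regulator receiver gene (Nitab4.5_0002208g0100) had 4.25, 6.41 and 6.39 in K326 and 0.31, 0 and 0 in Y (log2 difference -2.59, SE 0.22, limma adjusted p = 0.00168). The 6 ethylene genes held no call. The 40 gibberellin-regulated and GRAS genes (median -0.05) and the 40 genes of light and clock (median -0.04) held no call either. On leaving out 1 library, the call did not hold for the TIFY gene (without K326 replicates 1, 2 and 3 or Y replicates 1 and 2), Nitab4.5_0012011g0020 (without K326 replicate 1 or Y replicate 1) and the LOG gene (without K326 replicates 1 and 3 or Y replicate 1) (limma adjusted p up to 0.174). Median-of-ratios scaling ended the call of the TIFY gene.

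Most transcription factor families lay between the background and -0.30. The 95 AP2/ERF factors, many of them stress regulators, had a median of -0.30 with 1 higher and 3 lower, the 24 TCP factors, regulators of leaf growth, -0.30 with no call, the 81 bHLH factors -0.22 with 1 lower, and the 22 GATA factors -0.20 with 1 lower. The 165 MYB factors (-0.12), 43 WRKY factors (-0.01) and 33 Dof factors (-0.16) each held 1 lower call. The 38 NAC factors (-0.14), a family with known regulators of leaf senescence, held none. The share called was 4.21% for AP2/ERF, 1.23% for bHLH and 4.55% for GATA factors. It was 0.606% for MYB, 2.33% for WRKY and 3.03% for Dof factors, against 2.43% of all genes. A single call describes that gene and not its family. The AP2/ERF gene that was higher (Nitab4.5_0001603g0010) had 12.3, 13.1 and 12.96 in K326 and 48.3, 36.2 and 32.7 in Y (log2 difference 1.52, SE 0.17, limma adjusted p = 0.00654). The firmest lower AP2/ERF calls were Nitab4.5_0001375g0160, with 4.44, 6.10 and 6.92 in K326 and 1.75, 1.49 and 2.28 in Y, and Nitab4.5_0000516g0110, with 5.25, 6.10 and 8.69 in K326 and 1.37, 0.91 and 2.28 in Y (limma adjusted p = 0.0268 and 0.0273). The WRKY gene Nitab4.5_0000627g0060 had 2.98, 3.42 and 3.24 in K326 and 0.31, 0.37 and 0.43 in Y (log2 difference -1.62, SE 0.16, limma adjusted p = 0.00402). A bHLH gene (Nitab4.5_0000274g0130) had 23.2, 23.01 and 45.9 in K326 and 9.20, 7.15 and 4.74 in Y (log2 difference -1.95, limma adjusted p = 0.0324), with K326 replicate 3 well above the other K326 libraries. The 64 bZIP factors (median -0.13) held the scaffold 0002262 gene above and a gene listed at 0 in K326 (Nitab4.5_0000188g0190; 2.38, 2.19 and 4.32 in Y), both higher. Without 1 library at a time, limma adjusted p rose above 0.05, up to 0.127, for Nitab4.5_0001375g0160 (without K326 replicates 2 and 3 or Y replicates 1 and 2), Nitab4.5_0000516g0110 (without K326 replicates 1, 2 and 3 or Y replicates 1 and 2), the bHLH gene (without any of the 6 libraries) and the second bZIP gene (without Y replicate 1). Median-of-ratios scaling and quantile normalization ended the call of the bHLH gene.

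Small heat shock proteins, which hold unfolding proteins in solution, had a median of 0.27 over 43 genes, with 2 called higher and 1 lower. Their median deviation was -0.06, -0.15 and 0.01 in the K326 libraries and -0.13, 0.30 and 0.30 in the Y libraries, which overlapped. The gene Nitab4.5_0000278g0020 rose from 0.7, 1.50 and 0.88 to 20.2, 29.4 and 17.8 (log2 difference 3.52, SE 0.24, limma adjusted p = 0.000539), while Nitab4.5_0000008g0240 fell from 64.2, 47.1 and 57.2 to 0.55, 0 and 0 (log2 difference -5.62, SE 0.23, limma adjusted p = 4.52e-05). Both contrasts were without overlap. Of 118 DnaJ proteins, partners of Hsp70, 3 were higher and 1 lower (median 0.01). Nitab4.5_0005707g0010 and Nitab4.5_0011198g0010 had 0.95, 0.56 and 0.56 in K326 and 25.1, 14.01 and 45.6 in Y and 4.68, 2.89 and 2.85 in K326 and 24.1, 15.2 and 47.6 in Y (limma adjusted p = 0.00342 and 0.0221), with Y replicate 3 the highest library in both. A further DnaJ gene (Nitab4.5_0001705g0020) had 139.6, 154 and 140.2 in K326 and 279, 228 and 248 in Y (log2 difference 0.79, SE 0.13, limma adjusted p = 0.0279). The 111 genes of Hsp70, Hsp90 and chaperonins had a median of -0.09 and 3 lower calls. An Hsp70 gene (Nitab4.5_0002290g0040) had 11.9, 9.21 and 8.59 in K326 and 2.67, 4.05 and 4.09 in Y (log2 difference -1.25, limma adjusted p = 0.026). The 6 genes of its description summed to 62.9 ± 8.31 in K326 and 61.0 ± 16.3 in Y (SD, n = 3), which overlapped. The 24 heat shock factors held no call (median 0.12). Fits without 1 library lost the DnaJ gene Nitab4.5_0011198g0010 (without K326 replicates 1, 2 and 3 or Y replicate 1), the DnaJ gene Nitab4.5_0001705g0020 (without K326 replicates 1, 2 and 3 or Y replicates 1 and 3) and the Hsp70 gene (without any of the 6 libraries), with limma adjusted p up to 0.141. Quantile normalization ended the call of the DnaJ gene Nitab4.5_0001705g0020.

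Genes of protein breakdown mostly followed the background. The 30 autophagy genes had a median of 0.14, and the 12 Atg8 genes among them, which mark the autophagosome membrane, 0.35 with 10 above 0 and none called (limma). At an unadjusted p below 0.05, 2 of the 12 were higher. Nitab4.5_0002225g0080 had 46.1, 46.1 and 33.5 in K326 and 83.02, 58.2 and 82.3 in Y (log2 difference 0.81, limma adjusted p = 0.112), without overlap, and Nitab4.5_0002994g0040 had 133, 135 and 127 in K326 and 173, 149 and 158 in Y (log2 difference 0.27, limma adjusted p = 0.319). The 80 proteasome genes had a median of -0.14 and 1 higher call, the maturation factor UMP1 gene Nitab4.5_0002108g0070 with 8.05, 5.60 and 5.10 in K326 and 17.8, 16.2 and 16.5 in Y (log2 difference 1.32, SE 0.18, limma adjusted p = 0.0147). Of 77 ubiquitin-conjugating enzyme genes (-0.03) only the scaffold 0003779 gene was called, and of 154 F-box genes (-0.02) none. Of 410 RING finger genes (-0.08), 1 was higher and 5 were lower. Nitab4.5_0000287g0070 had 4.22, 3.49 and 4.31 in K326 and 0.02, 0 and 0 in Y (limma adjusted p = 0.000864). Among 120 proteases (median -0.13), an aspartic protease gene (Nitab4.5_0003481g0010) fell from 23.8, 19.7 and 44.8 to 2.05, 2.59 and 1.20 (log2 difference -3.31, SE 0.33, limma adjusted p = 0.00372). Calls lost on leaving out 1 library were those of the UMP1 gene (without K326 replicates 2 and 3 or Y replicate 1), with limma adjusted p up to 0.0891.

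Immune and defence genes held calls in both directions, where 0.919% of all genes were called higher and 1.51% lower. Of 34 NB-ARC receptors, which sense pathogen proteins inside the cell, 2 were higher and none lower (median 0.09). Nitab4.5_0021935g0010 had 0.01, 0 and 0 in K326 and 9.37, 8.19 and 7 in Y and Nitab4.5_0010653g0010 had 0.13, 0.04 and 0.03 in K326 and 2.34, 2.38 and 2.24 in Y (limma adjusted p = 0.000159 and 0.00536), and both calls held without each library. Of 49 lectin domain proteins, which bind sugars, 2 were higher (median 0.02). A ricin B lectin gene (Nitab4.5_0000571g0030) had 4.76, 5.53 and 3.43 in K326 and 31.3, 38.5 and 36.5 in Y (log2 difference 2.72, SE 0.19, limma adjusted p = 0.00056), and a mannose-binding lectin gene (Nitab4.5_0002977g0130) had 0, 0.39 and 0.32 in K326 and 9.42, 9.70 and 6.75 in Y (log2 difference 2.96, SE 0.21, limma adjusted p = 0.00072). The Y values exceeded the K326 values several times over. The 85 chitinases, glucanases and pathogenesis-related proteins had a median of -0.25, with 3 higher and 3 lower, or 1 to 3 higher and 0 to 2 lower without 1 library. Chitinases cut the chitin of fungal walls, and the genes Nitab4.5_0000416g0240 and Nitab4.5_0000416g0250, which lie on the same scaffold, were both higher, with 7.02, 4.02 and 5.32 in K326 and 30.7, 41.6 and 85.97 in Y and with 0, 0 and 0.09 in K326 and 8.86, 7.59 and 32.7 in Y (limma adjusted p = 0.011 and 0.0118). Y replicate 3 was the highest library in both. A glycoside hydrolase family 19 gene with a lysozyme-like domain (Nitab4.5_0000978g0100) was called lower. The 5 genes of its description held no higher call. They summed to 131 ± 118 in K326 and 69.7 ± 41.6 in Y (SD, n = 3), which overlapped. A Bet v 1-type major latex protein gene (Nitab4.5_0008046g0010) had 1.17, 3.08 and 1.21 in K326 and 13.8, 13.2 and 15.2 in Y (log2 difference 2.48, SE 0.26, limma adjusted p = 0.00493). Leaving out 1 library ended the call of Nitab4.5_0000416g0240 (without K326 replicate 3) and Nitab4.5_0000416g0250 (without K326 replicates 1, 2 and 3) (limma adjusted p up to 0.0591).

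Of 125 leucine-rich repeat receptor kinases (median -0.18), 38 had Y libraries wholly below K326, against 14.8% of all genes, and 1 was called in each direction. Over all genes, 0.919% were called higher and 1.51% lower. Of 179 calmodulin and EF-hand proteins, which bind calcium, 2 were higher and 5 lower (median -0.15). The following 3 lower genes had wide separations. Nitab4.5_0005031g0050 had 17.1, 21.6 and 19.9 in K326 and 0.07, 0.13 and 0.27 in Y (log2 difference -4.15, SE 0.16, limma adjusted p = 4.51e-05). Nitab4.5_0011970g0010 had 25.5, 36.8 and 40.4 in K326 and 1.25, 1.33 and 1.04 in Y (log2 difference -3.97, SE 0.20, limma adjusted p = 0.000135). Nitab4.5_0004513g0010 had 6.41, 5.96 and 7.45 in K326 and 1.01, 1.35 and 0.94 in Y (log2 difference -1.86, SE 0.16, limma adjusted p = 0.00195). Protein phosphatases 2C, negative regulators of abscisic acid and other signals, had 1 call in each direction among 79 genes (median 0.02). The higher (Nitab4.5_0001519g0160) had 0, 0 and 0.18 in K326 and 4.05, 3.78 and 7.87 in Y, and the lower (Nitab4.5_0000363g0030) had 7.86, 7.41 and 6.04 in K326 and 0, 0.03 and 0 in Y (limma adjusted p = 0.00545 and 0.000228). The 21 VQ motif proteins held no call, with a median of -0.13.

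Cytochromes P450, oxygenases of specialised metabolism, had 5 higher and 1 lower call among 101 genes, against 0.919% higher and 1.51% lower of all genes. Their median was 0.01. Without 1 library 0 to 3 were called higher and 1 to 2 lower, and the median ranged from -0.13 to 0.13, so the count of 5 held in none of these fits. The lower gene (Nitab4.5_0001182g0070) had 27.5, 30.4 and 21.3 in K326 and 5.19, 6.87 and 7.02 in Y (log2 difference -1.89, SE 0.19, limma adjusted p = 0.0037). Of the higher genes, Nitab4.5_0007043g0010 had 2.52, 1.84 and 1.56 in K326 and 9.10, 5.58 and 8.83 in Y and Nitab4.5_0017161g0010 had 1.96, 1.61 and 1.61 in K326 and 7.44, 5.86 and 4.27 in Y (limma adjusted p = 0.0177 and 0.0253). The 80 UDP-glycosyltransferases, which attach sugars to small molecules, had 3 higher and 5 lower calls (median 0.10), against 1 higher and 3 to 4 lower without 1 library. Nitab4.5_0006870g0010 had 40.03, 34.3 and 28.01 in K326 and 1.81, 0.81 and 2.69 in Y (log2 difference -3.71, SE 0.28, limma adjusted p = 0.000916), and Nitab4.5_0000407g0080 had 1.43, 1.30 and 1.26 in K326 and 7.41, 5.42 and 8.16 in Y (log2 difference 1.76, SE 0.18, limma adjusted p = 0.00402). The 41 genes of terpene synthases and isoprenoid supply held 3 lower calls and none higher (median -0.15). The terpene synthase genes Nitab4.5_0028193g0010 and Nitab4.5_0009618g0010 had 11.5, 17.2 and 12.6 in K326 and 4.51, 3.60 and 4.01 in Y and 23.9, 34.4 and 17.7 in K326 and 8.54, 9.53 and 7.69 in Y (limma adjusted p = 0.00831 and 0.0357). Terpene synthases are also the marker of glandular hairs whose sums are given above, and the part of hairs in these calls was not tested. With 1 library left out, the call was lost for the P450 gene Nitab4.5_0007043g0010 (without K326 replicates 2 and 3 or Y replicates 1 and 3), the P450 gene Nitab4.5_0017161g0010 (without K326 replicates 1, 2 and 3 or Y replicates 1 and 2) and the terpene synthase gene Nitab4.5_0009618g0010 (without K326 replicates 1 and 2 or Y replicates 1, 2 and 3), at limma adjusted p up to 0.154. Median-of-ratios scaling and quantile normalization ended the call of the terpene synthase gene Nitab4.5_0009618g0010.

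Of 30 genes of polyamine and nicotine synthesis (median -0.12), 2 were lower and both have an ornithine or arginine decarboxylase-type domain, the enzymes that open the pathway to putrescine. Nitab4.5_0005932g0030 had 39.1, 30.9 and 42.7 in K326 and 15.3, 20.7 and 16.4 in Y (log2 difference -1.06, SE 0.18, limma adjusted p = 0.0355), and Nitab4.5_0003280g0010 had 9.23, 10.1 and 6.45 in K326 and 1.84, 1.59 and 3.07 in Y (log2 difference -1.61, SE 0.24, limma adjusted p = 0.0202). The K326 libraries were all above the Y libraries. A quinolinate phosphoribosyltransferase gene (Nitab4.5_0000742g0010), which supplies the pyridine ring of nicotine and of NAD, had 90.9, 86.9 and 85.4 in K326 and 56.8, 62.2 and 59.8 in Y (log2 difference -0.55, limma adjusted p = 0.0692), without overlap. The 31 phenylpropanoid and lignin genes had a median of -0.18 and 2 higher calls. A gene described as a disease resistance response protein (Nitab4.5_0000956g0090), 1 of the 2 called, had 23.9, 18.3 and 16.1 in K326 and 44.4, 45.5 and 41.6 in Y (log2 difference 1.15, SE 0.17, limma adjusted p = 0.0198). A phenylalanine ammonia-lyase gene (Nitab4.5_0005320g0020), from the entry of the pathway, was not called and had 56.9, 75.1 and 53.3 in K326 and 57.3, 73.9 and 52.3 in Y, which overlapped. On leaving out 1 library, the call did not hold for the decarboxylase gene Nitab4.5_0005932g0030 (without K326 replicates 1, 2 and 3 or Y replicates 1 and 3), the decarboxylase gene Nitab4.5_0003280g0010 (without K326 replicates 1 and 2 or Y replicates 1 and 2) and the disease resistance response gene (without K326 replicates 2 and 3 or Y replicates 1 and 2) (limma adjusted p up to 0.16). Median-of-ratios scaling ended the call of the decarboxylase gene Nitab4.5_0005932g0030.

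The 63 genes of sucrose metabolism and sugar transport had 3 higher and 4 lower calls, 11.1% against 2.43% of all genes, and a median of 0.05. Without any 1 library 1 gene was called lower and 0 to 3 higher, and the median ranged from -0.11 to 0.18. Of 20 SWEET transporters, which export sugars, Nitab4.5_0003113g0050 and Nitab4.5_0000849g0010 were higher, with 0.73, 1.48 and 1.06 in K326 and 4.39, 4.08 and 4.62 in Y and 3.79, 1.65 and 3.41 in K326 and 9.11, 11.2 and 12.9 in Y, and Nitab4.5_0019996g0010 was lower, with 7.47, 9.56 and 8.97 in K326 and 4.34, 3.77 and 4.30 in Y (limma adjusted p = 0.0127, 0.0254 and 0.0302). A hexokinase gene (Nitab4.5_0004969g0090), of the enzyme that phosphorylates glucose and also senses it, had 3.58, 2.50 and 3.18 in K326 and 9.30, 8.45 and 12.1 in Y (log2 difference 1.42, SE 0.19, limma adjusted p = 0.0118). Another hexokinase gene (Nitab4.5_0006878g0050) was called lower. The 3 tested genes of this description summed to 19.0 ± 0.77 in K326 and 21.4 ± 2.99 in Y (SD, n = 3), which overlapped. Primary metabolism held almost no call. The 128 genes of glycolysis, the TCA cycle and respiration (median -0.01), the 20 of starch (-0.10) and the 27 of nitrogen assimilation and transport (-0.06) held none (limma), with 16, 2 and 2 at an unadjusted p below 0.05. The 98 of amino acid synthesis (-0.07) held 1, which was lower. A glutamine synthetase gene (Nitab4.5_0000059g0010), which fixes ammonium, had 823, 904 and 994 in K326 and 850.0, 851 and 908 in Y. Without 1 library at a time, limma adjusted p rose above 0.05, up to 0.12, for the SWEET gene Nitab4.5_0003113g0050 (without K326 replicates 1 and 3 or Y replicate 1), the SWEET gene Nitab4.5_0000849g0010 (without K326 replicates 1 and 3 or Y replicates 1, 2 and 3), the SWEET gene Nitab4.5_0019996g0010 (without any of the 6 libraries) and the hexokinase gene Nitab4.5_0004969g0090 (without K326 replicate 3 or Y replicate 1). Median-of-ratios scaling and quantile normalization ended the call of the SWEET gene Nitab4.5_0019996g0010.

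The 30 genes of superoxide dismutase, ascorbate peroxidase and catalase, which detoxify reactive oxygen, had a median of 0.03 and 2 higher calls, both of the manganese or iron dismutase type. Nitab4.5_0000375g0200 had 1, 0 and 3.22 in K326 and 13.7, 14.3 and 19.4 in Y (log2 difference 3.03, SE 0.49, limma adjusted p = 0.0272), beside Nitab4.5_0002279g0090 above. The 5 genes with the description of Nitab4.5_0000375g0200 summed to 748 ± 142 in K326 and 969 ± 176 in Y (SD, n = 3), which overlapped. The 52 glutaredoxins had 1 call in each direction (median 0.07), Nitab4.5_0001943g0010 with 9.16, 11.02 and 5.99 in K326 and 25.4, 25.5 and 32.1 in Y and Nitab4.5_0000865g0030 with 10.4, 10.2 and 13.7 in K326 and 5.39, 5.28 and 4.33 in Y (limma adjusted p = 0.0175 and 0.0271). The 87 thioredoxins and peroxiredoxins held no call (median 0.01), with 12 higher and 5 lower at an unadjusted p below 0.05. A glutathione transferase gene (Nitab4.5_0002470g0030), of a detoxifying family, fell from 11.9, 13.02 and 11.2 to 0.66, 1.18 and 0 (log2 difference -3.08, SE 0.29, limma adjusted p = 0.00273). The glutathione transferase descriptions with 15 and 25 tested genes held no call. Their medians were 0.10 and 0.14, with 9 and 17 genes above 0. Among ion transporters (89 genes, median -0.05), a potassium transporter (Nitab4.5_0000138g0070) and a sodium/sulphate symporter (Nitab4.5_0000863g0080) were lower, with 7.32, 8.25 and 6.62 in K326 and 2.92, 3.03 and 3.96 in Y and 20.9, 21.4 and 25.2 in K326 and 8.07, 8.11 and 10.6 in Y (limma adjusted p = 0.0324 and 0.0112). The 5 genes of the symporter's description summed to 345 ± 21.4 in K326 and 281 ± 5.29 in Y (SD, n = 3). The chloride channel gene Nitab4.5_0001220g0060 given above, also of this list, was higher. ABC transporters (43 genes, median -0.07) held no call. The 67 lipases had a median of -0.23 and 2 lower calls, the 59 genes of fatty acid synthesis -0.12 and none, and the 85 of lipid transfer and cuticular wax -0.12 and 2 lower. The GDSL lipase Nitab4.5_0000202g0020 had 292, 222 and 203 in K326 and 129, 126 and 129 in Y (log2 difference -0.88, limma adjusted p = 0.0426). Fits without 1 library lost Nitab4.5_0000375g0200 and Nitab4.5_0001943g0010 (without K326 replicate 1 or Y replicates 1, 2 and 3), Nitab4.5_0000865g0030 and the lipase (without any of the 6 libraries), the potassium transporter (without K326 replicates 1, 2 and 3 or Y replicates 1 and 2) and the symporter (without K326 replicates 1 and 3 or Y replicate 1), with limma adjusted p up to 0.179. Median-of-ratios scaling and quantile normalization ended the call of Nitab4.5_0000865g0030 and the lipase.

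Beyond the lists, 245 description families had at least 10 tested genes, 5106 genes in all, and their medians ranged from -1.28 to 0.37. A called gene occurred in 72 of the 245. Below the histone and phosphate-induced families came DUF4228 proteins, with a median of -0.60 over 26 genes and 1 lower call. The highest medians after the ARG7-type and Atg8 families were those of the DnaJ cysteine-rich domain (17 genes, 0.34), the chlorophyll a/b-binding proteins (53 genes, 0.30) and the Hsp20 domain (39 genes, 0.27). The largest share of called genes was that of an aldo/keto reductase description, a family of NADPH-dependent enzymes, with 36.4% of 11 genes, 2 in each direction. Of these, Nitab4.5_0000309g0040 had 16.7, 18.2 and 13.7 in K326 and 38.9, 38.02 and 47.6 in Y (log2 difference 1.31, SE 0.17, limma adjusted p = 0.0103), and Nitab4.5_0010774g0010 had 6.41, 4.53 and 5.53 in K326 and only listed zeros in Y (limma adjusted p = 0.000539). Calls lost on leaving out 1 library were those of Nitab4.5_0000309g0040 (without K326 replicate 1 or Y replicate 1), with limma adjusted p up to 0.0549. Of the 402 called genes, 59 are described as Unknown, as are 2465 of the genes tested.

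Some called genes outside the lists are given because of their values and were chosen after these were seen. An acid phosphatase gene (Nitab4.5_0000300g0180), of a family that releases phosphate, fell from 166, 192 and 215 to 50.9, 48.5 and 63.9 (log2 difference -1.79, SE 0.16, limma adjusted p = 0.0025). A polyphenol oxidase gene (Nitab4.5_0000907g0080), whose enzyme browns cut leaf tissue, had 12.8, 9.33 and 19.4 in K326 and 0.04, 0 and 0 in Y (log2 difference -3.81, SE 0.26, limma adjusted p = 0.000539), and a villin gene (Nitab4.5_0000586g0070), which bundles actin, had 22.2, 20.5 and 16.9 in K326 and 0, 0.03 and 0.02 in Y (log2 difference -4.35, SE 0.16, limma adjusted p = 3.41e-05). Both were near 0 in Y. A porin-type gene (Nitab4.5_0000002g0440) had 18.99, 19.3 and 22.01 in K326 and 69.3, 86.6 and 61.01 in Y (log2 difference 1.78, limma adjusted p = 0.00273), and a fibrillin gene (Nitab4.5_0004821g0050), of the lipid bodies of plastids, had 93.1, 89.7 and 85.98 in K326 and 137, 198 and 194 in Y (log2 difference 0.95, limma adjusted p = 0.0412). A cofilin gene (Nitab4.5_0008504g0030), which severs actin filaments, lies on the scaffold of the H2A gene that was listed at 0 in Y and was higher, with 14.6, 8.16 and 11.7 in K326 and 52.2, 55.9 and 74.4 in Y (log2 difference 2.33, limma adjusted p = 0.00408). Leaving out 1 library ended the call of Nitab4.5_0004821g0050 (without K326 replicates 1, 2 and 3 or Y replicates 2 and 3) (limma adjusted p up to 0.137).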

How the data were processed

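The deposited table gives, per library, an expression signal for 69500 genes of the Nitab4.5 set. The deposited signal is never negative and has at most 2 decimals, its unit is not named, and library sums differ (551496 to 591786), so it holds no raw counts and no scaling to a fixed total. Per the submitters' processing notes the authors used HISAT2, StringTie and RSEM, with no version or role stated; how reads were counted, and on which build, is not given in the sources used here. Per the labels' protocols, total RNA was DNase-treated and sequenced as read pairs. Depth is unknown, so no counting interval is given.

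The planned count test did not apply. Values were tested as log2(value + 1), which understates differences of low genes, over the 3 Y and 3 K326 libraries with limma 3.58.1 under R 4.3.3 (two-sided empirical Bayes moderation, trended by mean level), for genes with a mean of at least 1, and Benjamini-Hochberg adjusted p-values below 0.05 were called. The fit was tested on simulated data. Alternatives were pseudocounts of 0.1 and 0.5, no filter or a minimum mean of 5, median-of-ratios, quantile and equal-sum scaling, all 9 libraries in 1 fit, no trend, the replicate number as a block, and each library left out.

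Genes are named by their deposited descriptions, which give protein domains. A reference list of 79372 tobacco genes had 0 identifiers in common, so symbols and sequences are not given. In all, 89 lists and 23 subgroup lists were matched to descriptions, and the members and lists were chosen with earlier results of these data known. Of the tested genes, 6135 fell in a list, with 185 of the called genes. Named genes were every tested dihydroneopterin aldolase, the 10 highest and 10 lowest called differences among described genes without overlap whose mean reached 5 in the higher material, up to 3 members per list (called genes by adjusted p, then by mean), and genes on shared scaffolds or chosen after their values were seen, as stated.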

Additional observations from a re-analysis of the deposited data

How the results depend on the processing

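The number of called genes (402, of which 152 higher and 250 lower) stayed within 1.5 times under 8 of the alternatives that kept all libraries but moved under others. With a minimum mean of 5, over 8121 genes, 251 were called (88 higher, 163 lower, 200 at 2-fold or more). With the replicate number as a block, 139 were called (46 higher, 93 lower, all 139 at 2-fold or more). The labels do not say that the numbers pair the libraries. The correlations of same-numbered libraries' deviations were -0.12, -0.08 and -0.16, against -0.04 to 0.12 for the other pairs. Because deviations sum to 0 within a material, these values cannot settle whether the numbers pair. Leaving out 1 library gave 174 to 327 calls, 59 to 119 higher, 115 to 208 lower, and 174 to 311 at 2-fold or more. Of the calls, 37 higher and 81 lower held under each alternative in which the gene was tested. Scaling moved the balance but not the total: median-of-ratios scaling called 183 higher and 192 lower, quantile normalization 179 and 196, and equal sums 139 and 262. No named gene changed direction where it was called. Medians of gene groups, which carry no test, changed sign in 20 of 112 groups with median-of-ratios scaling, 17 with quantile normalization, 4 with equal sums, 0 with the block and 31 in at least 1 fit without a library. Over the single genes and groups, 8926 values stayed on their side of the threshold or within the spread, 640 lost and 6 gained a call, and 991 moved beyond the spread; the cause was not tested. Depth is unknown, and a listed 0 may be a failed estimate.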
